A study of Homo sapiens with 8 samples.

Results

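Annexins are cytosolic proteins that bind acidic phospholipids when calcium rises, and their core of repeated domains brings membranes together at sites of vesicle traffic, exocytosis and wound repair. Each member has its own N-terminal tail, which sets its partners: S100 proteins pair with several annexins, and the tail of ANXA1 gives peptides that act on formyl peptide receptors. The 8 annexins described here, ANXA1, ANXA2, ANXA3, ANXA4, ANXA5, ANXA6, ANXA7 and ANXA11, are 8 of 17179 gene symbols in the count files. The family was chosen on 1 measured value, the higher ANXA1 count with a short hairpin RNA named shNBD1. Values of that comparison are therefore given as a description, without a test.

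Ribosome footprints, the stretches of mRNA that ribosomes shield from nuclease, were counted in 8 libraries of 293T, a human line derived from HEK293 that expresses SV40 large T antigen. In 1 arm, 2 libraries of cells with the non-cleaving shRNA shNBD1 were set against 2 of a control for shRNA. In the other arm, 2 libraries of cells with miRNA inhibitors were set against 2 of a negative control. The labels give no construct, inhibitor identity, dose or time, and they do not say that libraries of a group came from separate cultures, so the spread within a group may be technical.

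Total counts ran from 11218980 to 19854218 per library, and each annexin had between 326 and 9527 reads in every library. Of 8 genes taken as markers of the HEK293 lineage, 6 were listed in the files, and NEFL and LHX1 were not. Their summed level was 3647 to 3688 CPM (reads of a gene scaled to the size of its library) in the shRNA control, 6039 to 6328 with shNBD1, 3170 to 3696 in the inhibitor control and 3232 to 3403 with the inhibitors, most of it from VIM (vimentin). Of 10 markers of other cell types, 5 passed the filter on low counts. The sum over all 10 lay between 93.8 and 93.9 CPM in the shRNA control, between 109 and 111 under shNBD1, between 56.7 and 83.8 in the inhibitor control and between 78.2 and 108 with the inhibitors. PTPRC, ALB, HBB, KRT5 and CDH5 were at or near 0 in every library. COL1A1 was at 38.8 and 38.3 CPM in the shRNA control and at 52.1 and 57.2 CPM with shNBD1 (adjusted p = 0.160, edgeR). It was at 24.2 and 43.3 CPM in the inhibitor control and at 41.1 and 61.0 CPM with the inhibitors. COL3A1 and PECAM1 lay between 0.680 and 4.34 CPM, and neither passed with shNBD1. With shNBD1, MYH11 of smooth muscle rose by 0.81 ± 0.15 on the log2 scale (SE, adjusted p = 0.00461, edgeR) and CD68 of macrophages fell by 0.51 ± 0.12 (adjusted p = 0.0170, edgeR). CD68 also differed between the controls, at 38.0 and 38.5 CPM for shRNA and 11.7 and 15.1 CPM for the inhibitors. Of the 6 listed HEK293 markers, VIM, LIN28B, INA and TUBB3 rose with shNBD1 (adjusted p under 0.05, edgeR), against 9.18% of all genes. NEFM and PAX2 did not pass. The part of these shifts in the annexin values was not tested.

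The members lie on 6 chromosomes, and each is counted on a single transcript feature. In GRCh38, ANXA1 spans 73151865 to 73170393 of chromosome 9, ANXA2 60347151 to 60397986 of chromosome 15, ANXA3 78551770 to 78610447 and ANXA5 121667946 to 121696980 of chromosome 4. ANXA4 spans 69643808 to 69827112 of chromosome 2, ANXA6 151100706 to 151157779 of chromosome 5, and ANXA7 and ANXA11 lie at 73375101 to 73414058 and 80150889 to 80205808 of chromosome 10. The promoters of the 3 members that were highest relative to control with shNBD1, and that of ANXA5, which was not higher, are shown to set their start regions side by side. They are the 250 bases before the RefSeq start (GRCh38.p14), at chr9:73151615-73151864 (plus strand) for ANXA1, chr15:60397987-60398236 (minus strand) for ANXA2, chr4:78551520-78551769 (plus strand) for ANXA3 and chr4:121696981-121697230 (minus strand) for ANXA5. Capitals mark matches on either strand to TGANTCA (AP-1), GGGCGG (GC box), CCAAT and TATAAA.
ANXA1 promoter: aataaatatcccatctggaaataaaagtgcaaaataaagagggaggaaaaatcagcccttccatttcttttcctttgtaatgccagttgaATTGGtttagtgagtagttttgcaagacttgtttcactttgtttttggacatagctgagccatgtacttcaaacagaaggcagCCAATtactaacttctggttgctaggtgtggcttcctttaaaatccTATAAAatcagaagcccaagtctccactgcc
ANXA2 promoter: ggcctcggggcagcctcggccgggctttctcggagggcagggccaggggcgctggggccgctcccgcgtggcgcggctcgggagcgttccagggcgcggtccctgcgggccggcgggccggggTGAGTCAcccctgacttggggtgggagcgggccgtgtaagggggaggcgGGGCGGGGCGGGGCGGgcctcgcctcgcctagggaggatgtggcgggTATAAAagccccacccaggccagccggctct
ANXA3 promoter: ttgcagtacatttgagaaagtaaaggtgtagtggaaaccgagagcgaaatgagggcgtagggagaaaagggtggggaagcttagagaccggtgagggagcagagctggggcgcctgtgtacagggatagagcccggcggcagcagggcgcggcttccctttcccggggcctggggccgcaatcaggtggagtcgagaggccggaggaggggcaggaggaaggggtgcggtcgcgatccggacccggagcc
ANXA5 promoter: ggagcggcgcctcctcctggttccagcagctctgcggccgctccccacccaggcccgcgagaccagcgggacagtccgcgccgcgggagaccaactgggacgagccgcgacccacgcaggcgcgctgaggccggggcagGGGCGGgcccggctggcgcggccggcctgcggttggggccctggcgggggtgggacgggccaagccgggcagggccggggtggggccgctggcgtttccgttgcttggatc

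The 6 motifs were searched in windows of 300 bases, 250 before and 50 after each start, on both strands. The ANXA1 window held 37.7% G and C, against 76.0% for ANXA2, 64.7% for ANXA3, 76.3% for ANXA5 and a median of 58.7% over 35116 RefSeq promoters. TATAAA began 31 bases before the start in both ANXA1 and ANXA2, and it was also found in 1 of 3 ANXA11 windows. It is present in 11.53% of all promoters. ANXA1 held CCAAT at 2 places. ANXA2 held 1 AP-1 match (7.71% of all promoters) and 3 overlapping GC boxes (44.95% of all promoters). None of the 6 motifs matched in the ANXA3 window, and GGAATG (TEAD) matched in none of the 12 windows of the 8 members, against 14.03% of all promoters. CCAAT was found in 4 of the 12 windows (34.61% of all promoters) and the GC box in 7 of the 12 (44.95%). The CArG box, the site of serum response factor, was found in ANXA7 alone among the members (1.29% of all promoters). A match to these letters is a description of the sequence and does not show binding.

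ANXA1, the anti-inflammatory annexin once called lipocortin, was at 85.5 and 87.2 CPM in the shRNA control libraries and at 211 and 200.3 CPM with shNBD1. Both shNBD1 libraries were far above both controls. The log2 fold change was 1.25 ± 0.10 (SE, edgeR), a fold of 2.38, and 177 of 13306 tested genes had a larger one. CPM here uses library sizes scaled by TMM, and levels are compared between groups for 1 gene at a time, because footprint counts also grow with coding length, which was not used here. Footprints alone do not tell a change in mRNA from a change in its translation, nor a change in some cells from one in all.

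ANXA3, a smaller annexin also described as an inhibitor of phospholipase A2, was at 32.6 and 31.1 CPM in the shRNA control libraries and at 80.1 and 79.2 CPM with shNBD1. Its log2 fold change was 1.32 ± 0.19, a fold of 2.50, and 154 tested genes had a larger one. Of the 8 members, ANXA3 thus had the highest fold and the lowest read counts. Its SE was the widest, with the spread estimated over both arms. On the 4 libraries of the shRNA arm alone the SE of ANXA3 was 0.065. ANXA2, which links actin to membranes as a heterotetramer with S100A10 and serves as a plasminogen receptor at the cell surface, was at 385 and 389.6 CPM in the control and at 569.9 and 552 CPM with shNBD1. The log2 fold change of ANXA2 was 0.53 ± 0.08. ANXA2 has 3 processed copies in the genome, ANXA2P1, ANXA2P2 and ANXA2P3, and none has a row in the files. How reads that match both were placed is not given in the sources used here, so the level of ANXA2 carries that uncertainty.

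ANXA6, the only annexin with a doubled core and a regulator of cholesterol and endosome traffic, was at 427.0 and 426.6 CPM in the shRNA control libraries and at 560.0 and 550.4 CPM with shNBD1. Its log2 fold change was 0.38 ± 0.09. ANXA11, which carries RNA granules on lysosomes through a long disordered tail, was at 142 and 146 CPM in the control and at 167 and 168 CPM with shNBD1, with a log2 fold change of 0.22 ± 0.07. In both genes the treated libraries lay above the controls without overlap, at smaller log2 fold changes than in ANXA1 and ANXA3.

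The other members did not share this direction. ANXA5, the phosphatidylserine-binding protein used to stain apoptotic cells, was at 254 and 255 CPM in the control and at 244 and 229 CPM with shNBD1, a log2 difference of -0.11 ± 0.07. ANXA7, also called synexin, which aggregates chromaffin granules, was at 184 and 176 CPM against 166 and 157 CPM, a log2 difference of -0.16 ± 0.07. ANXA4, an epithelial annexin that lowers membrane mobility, was at 82.6 and 83.2 CPM against 84.0 and 78.9 CPM, a log2 difference of -0.03 ± 0.14. Its groups overlapped, while the treated libraries of ANXA5 and ANXA7 lay below their controls by margins near the spread between libraries.

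**Figure D1:**
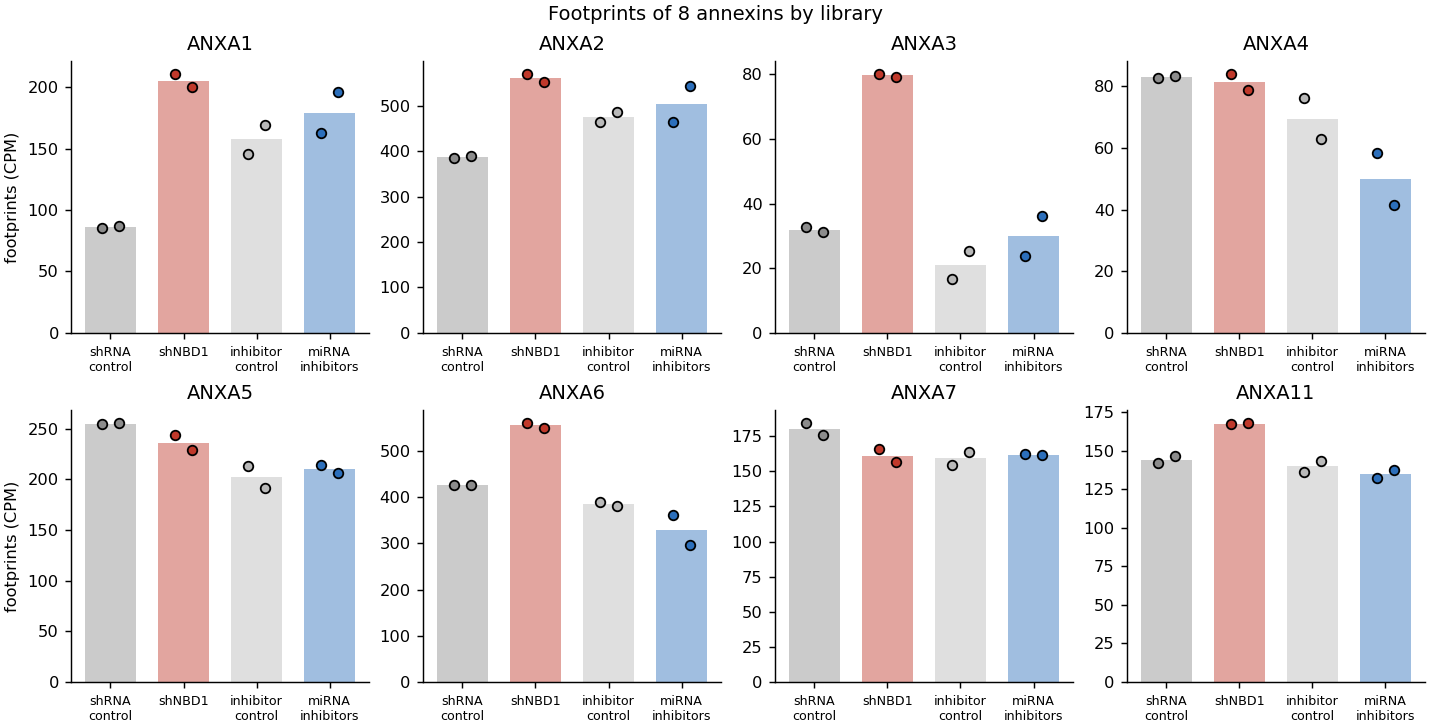
Footprints of the 8 annexins in CPM (TMM-scaled) in the shRNA control, shNBD1, inhibitor control and miRNA inhibitor groups, with points for the 2 libraries of a group and bars for their mean. ANXA1 goes from 85.5 and 87.2 CPM in the shRNA control to 211 and 200.3 CPM with shNBD1, while ANXA4 is lowest with the inhibitors, at 58.3 and 41.4 CPM.

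In total, both shNBD1 libraries were above both controls in 5 of the 8 members, below them in 2 and overlapping in 1, where 34.7% of all tested genes were above and 34.3% below. Because ANXA1 in this comparison chose the family, nothing is read from these counts, nor from the median and the sum that follow, which include ANXA1. The median log2 fold change of the 8 was 0.30, against 0.0013 over all genes tested. Summed over the 8 members, footprints were 1594 and 1596 CPM in the shRNA control, against 2081 and 2014 CPM with shNBD1.

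The rule that chose the family used no value of the inhibitor arm, which was tested, though earlier results of these data were known. No annexin passed in the fit of all libraries: 0 of 8 had an adjusted p under 0.05 in edgeR's quasi-likelihood test or in DESeq2, and 0.12% of all genes were called by edgeR. An unadjusted p under 0.05 was found for 3 of 8 annexins and for 16.4% of all genes in edgeR. Both inhibitor libraries lay below both controls in ANXA4 and ANXA6, where 20.3% of all genes did so, and above both controls in 0 members, against 20.5% of all genes. The median log2 fold change of the 8 members was 0.04 and that of all genes 0.0066. The summed footprints of the family were 1596 and 1623 CPM in the inhibitor control and 1580 and 1618 CPM with the inhibitors.

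ANXA4 had the smallest p of the family with the inhibitors. It was at 76.1 and 63.0 CPM in their control and at 58.3 and 41.4 CPM with the inhibitors, lower in 2 of 2 libraries. The log2 fold change was -0.47 ± 0.14 (95% interval -0.77 to -0.16), with an adjusted p of 0.161 in edgeR. On the 4 libraries of the arm alone it was -0.47 ± 0.17 (adjusted p = 0.568, edgeR). The value was -0.60 without inhibitor control replicate 2 and -0.76 without inhibitors replicate 1. It was -0.33 without inhibitor control replicate 1 and -0.27 without inhibitors replicate 2. Each of these fits leaves 1 library in a group, and replicate 2 was the lower library in both groups. Over the 13 alternatives the value of ANXA4 ran from -0.76 to -0.11. ANXA6 was at 389 and 380.4 CPM in the inhibitor control and at 362 and 295 CPM with the inhibitors, lower in 2 of 2 libraries. Its log2 fold change was -0.22 ± 0.09 (95% interval -0.42 to -0.03, adjusted p = 0.242, edgeR). On the 4 libraries of the arm alone it was -0.22 ± 0.12 (adjusted p = 0.598, edgeR). The value was -0.39 without inhibitors replicate 1 and -0.10 without inhibitors replicate 2, fits that leave 1 library in that group.

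ANXA3 was at 16.7 and 25.4 CPM in the inhibitor control and at 23.6 and 36.2 CPM with the inhibitors, so the groups overlapped. Its log2 fold change was 0.49 ± 0.20 (95% interval 0.04 to 0.94, adjusted p = 0.274, edgeR). On the 4 libraries of the arm alone it was 0.50 ± 0.25 (adjusted p = 0.592, edgeR). The value was 0.82 without inhibitor control replicate 2 and 0.77 without inhibitors replicate 1, fits that leave 1 library in a group. Without inhibitors replicate 2 the value was 0.16. With inhibitor control replicate 1 left out as well, it was -0.10. ANXA1 was at 146 and 169 CPM in the inhibitor control and at 163 and 196 CPM with the inhibitors, also overlapping. Its log2 fold change was 0.19 ± 0.10 (95% interval -0.03 to 0.40, adjusted p = 0.368, edgeR). The value of ANXA1 was 0.08 without inhibitor control replicate 1 and 0.29 without inhibitor control replicate 2. It was 0.30 without inhibitors replicate 1 and 0.04 without inhibitors replicate 2. Each of these fits leaves 1 library in a group.

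The remaining members differed little in the inhibitor arm. ANXA2 was at 465 and 486 CPM against 464 and 543 CPM, with a log2 fold change of 0.08 ± 0.08 (95% interval -0.09 to 0.26, adjusted p = 0.632, edgeR). ANXA5 was at 213 and 191 CPM against 214 and 207 CPM (0.06 ± 0.07, interval -0.10 to 0.22). ANXA7 was at 155 and 164 CPM against 162 and 162 CPM (0.02 ± 0.07, interval -0.12 to 0.17). ANXA11 was at 136 and 144 CPM against 132 and 138 CPM (-0.05 ± 0.07, interval -0.20 to 0.09). Adjusted p-values of these last 3 lay between 0.719 and 0.886 in edgeR, and each interval includes 0.

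**Figure D2:**
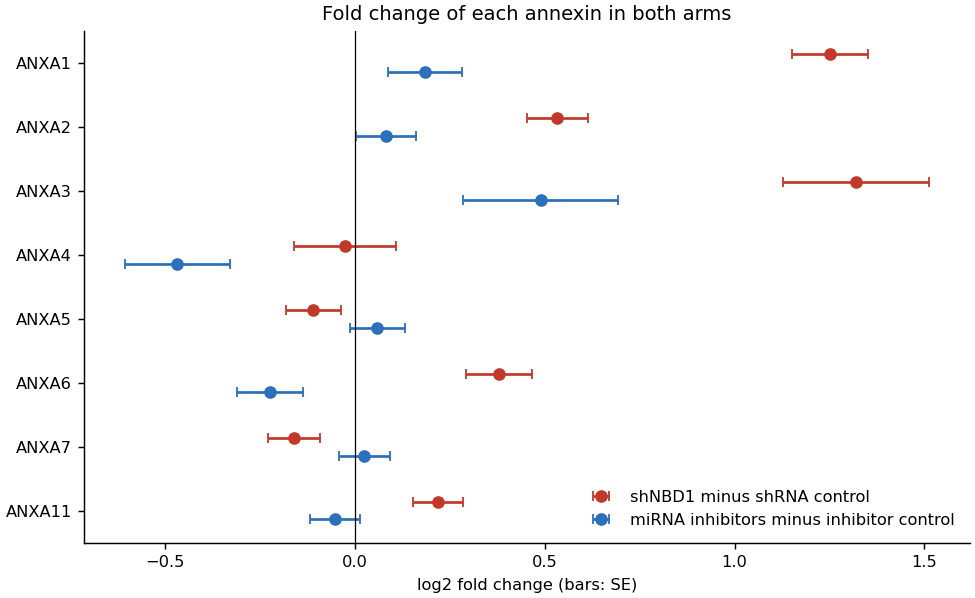
Log2 fold change of each annexin in shNBD1 minus shRNA control (red) and miRNA inhibitors minus inhibitor control (blue), with bars for the SE of the edgeR fit. ANXA1 and ANXA3 stand at 1.25 and 1.32 in the shRNA arm, and ANXA4 at -0.47 in the inhibitor arm.

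**Figure D3:**
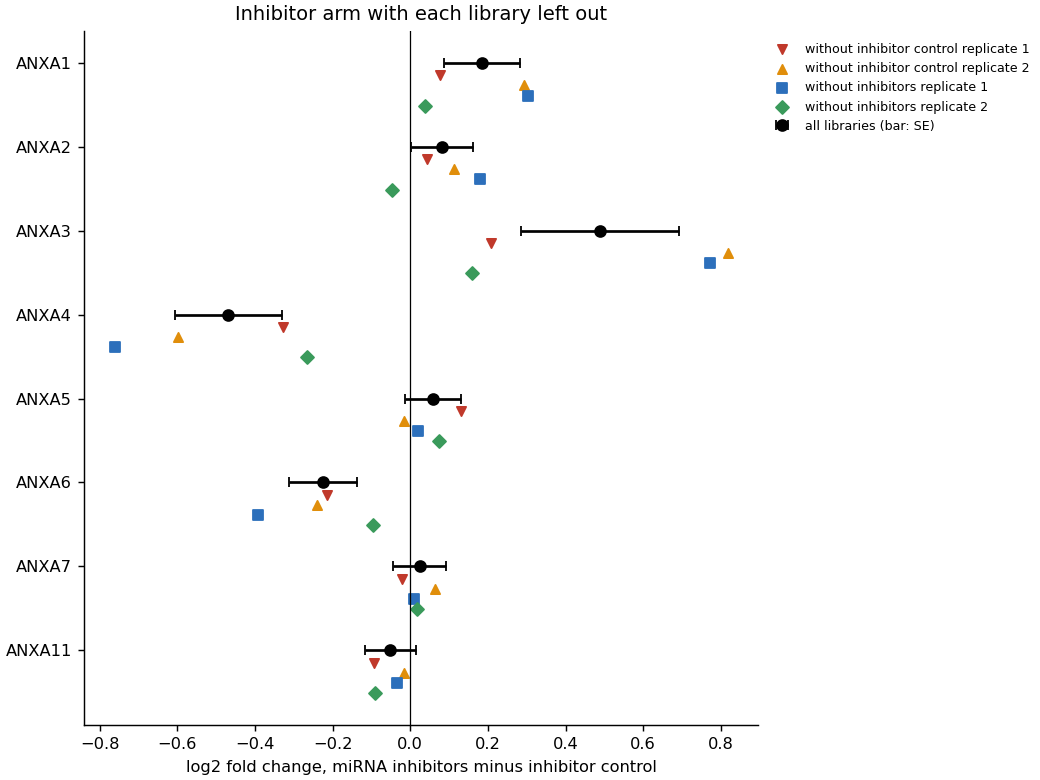
Log2 fold change of each annexin in the inhibitor arm with all libraries (black, bar for the SE) and with each of its 4 libraries left out in turn (coloured). ANXA3 ranges from 0.16 to 0.82 and ANXA4 from -0.76 to -0.27, while ANXA7 and ANXA11 stay near 0.

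The groups of the members fell in different orders. For ANXA1 and ANXA2 the order from low to high was shRNA control, inhibitor control, inhibitors and shNBD1, with overlap only between the inhibitor control and the inhibitors. The 2 controls thus stood apart: ANXA1 was at 86.3 ± 1.16 CPM in the shRNA control libraries and 158 ± 16.4 CPM in the inhibitor control (mean ± SD, n = 2 each), a log2 difference of -0.87 ± 0.10. The shRNA control libraries are those of the comparison that chose the family, so this difference was not tested. ANXA3 ran the other way, at 31.9 ± 1.06 CPM in the shRNA control libraries and 21.0 ± 6.16 CPM in the inhibitor control, and only its shNBD1 libraries stood apart from all others. ANXA6 stood, from low to high, in the order inhibitors, inhibitor control, shRNA control, shNBD1 with no overlap between neighbours. ANXA11 had the same order, but only shNBD1 was apart from its neighbour. ANXA5 was highest in the shRNA control, at 255 ± 0.938 CPM, then shNBD1, with the inhibitor arm below at 202 ± 15.01 CPM in the control and 210.4 ± 5.27 CPM with the inhibitors. ANXA7 was apart from the other groups only in the shRNA control, at 180.2 ± 5.96 CPM.

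The genes most like ANXA1 over the 8 libraries were taken from 10901 genes outside the family with a mean of at least 50 counts, by Pearson's r of log2(CPM + 0.5). The libraries form 4 groups of 2, so r describes mostly the group means. The 5 highest were LOXL2, a lysyl oxidase of the extracellular matrix (r = 0.990), CNN1, the actin-binding calponin of smooth muscle (0.986), NCKAP5L, of microtubule bundles (0.980), PODXL2, a sialomucin (0.979), and FAM219A (0.977). LOXL2 was at 19.1 and 18.7 CPM in the shRNA control, at 48.6 and 50.8 CPM with shNBD1, 32.5 and 41.4 CPM in the inhibitor control and 43.8 and 47.8 CPM with the inhibitors, the same order of groups as ANXA1. CNN1 was at 0.664 and 0.900 CPM in the shRNA control libraries and at 5.48 and 5.17 CPM with shNBD1. Within the family, ANXA2 was most like ANXA1 (r = 0.974), followed by ANXA3 (0.415), and ANXA7 was least like it (-0.795).

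**Figure D4:**
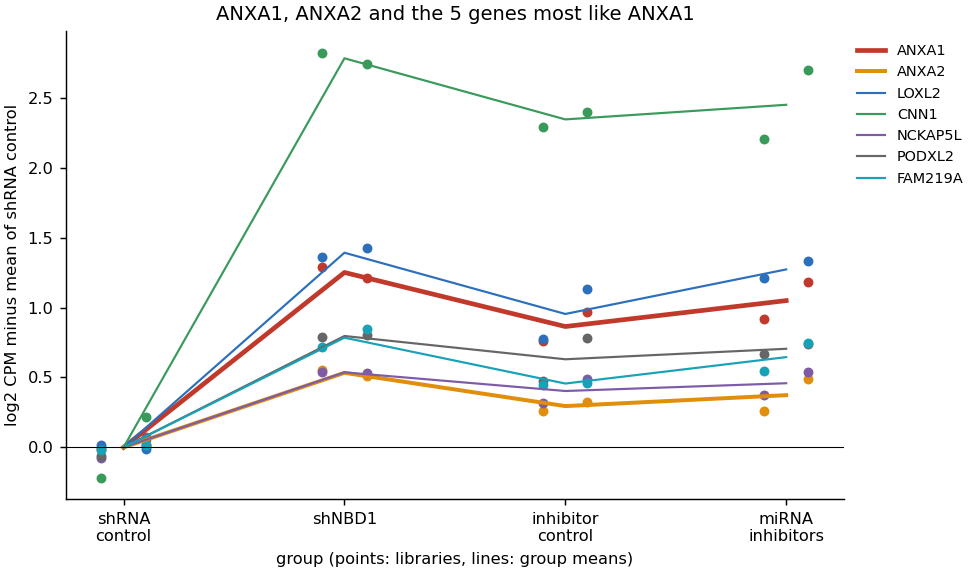
Log2 CPM minus the mean of the shRNA control for ANXA1, ANXA2 and the 5 genes most like ANXA1, with points for libraries and lines through group means. All 7 genes are lowest in the shRNA control and highest with shNBD1, and CNN1 moves most.

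Partners and relatives of the annexins were taken from 6 lists of 75 genes, chosen with earlier results of these data known. Of the 75 genes, 66 were listed in the files and 51 passed the filter. With shNBD1, 4 rose and 3 fell of the 51 that passed the filter (adjusted p under 0.05, edgeR), against 18.3% of all genes called and 9.18% called higher. Their median log2 fold change was 0.07. The count was 2 without shRNA control replicate 1, 2 without shRNA control replicate 2, 3 without shNBD1 replicate 1 and 2 without shNBD1 replicate 2, and only CAPN1 and DUSP1 passed in all of these fits. On the 4 libraries of the arm alone it was 20. With the inhibitors 0 of the 51 passed in edgeR, 13 had an unadjusted p under 0.05 (25.5%, against 16.4% of all genes), and DESeq2 called 1, CAPNS1.

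Of 11 tested S100 proteins, the small calcium-binding partners of annexins, 1 rose with shNBD1. S100A11, which binds the tails of ANXA1 and ANXA2, was at 215 and 214 CPM in the shRNA control libraries and at 262 and 254 CPM with shNBD1, a log2 change of 0.27 ± 0.07 (adjusted p = 0.0215, edgeR). With the inhibitors S100A11 was at 236 and 219 CPM against 242 and 255 CPM, a log2 difference of -0.13 ± 0.07 (adjusted p = 0.375, edgeR). The difference between these effects was 0.40 ± 0.10 (adjusted p = 0.0338, edgeR), where 7.44% of all genes were called, and S100A11 was the 1 of 51 partners that passed. That call was lost with no TMM factors, without any 1 library of the shRNA arm and without inhibitor control replicate 2. S100A10, the light chain of ANXA2, was at 136 and 138 CPM in the control and at 162 and 150.4 CPM with shNBD1 (0.19 ± 0.09, adjusted p = 0.189, edgeR). S100A3 had the smallest p of the list with the inhibitors, at -0.85 ± 0.43 (adjusted p = 0.349, edgeR). S100A6, another known annexin partner, had 2 reads in all 8 libraries.

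Among 20 tested genes of membrane repair and of ESCRT, 1 rose and 1 fell with shNBD1. AHNAK, a giant scaffold that binds ANXA2 and S100A10, went from 117 and 122 CPM to 179.7 and 183 CPM, or 0.60 ± 0.16 on the log2 scale (adjusted p = 0.0236, edgeR). CAPN1, the calpain 1 protease, went from 152 and 151 CPM to 104 and 106 CPM, or -0.53 ± 0.07 on the log2 scale (adjusted p = 0.000703, edgeR). PDCD6, also known as ALG-2, which binds ANXA7 and ANXA11, was at 103 and 101 CPM in the control and at 114 and 106 CPM with shNBD1 (0.11 ± 0.07, adjusted p = 0.303, edgeR). SRI (sorcin), a partner of ANXA7, was at 0.17 ± 0.10 on the same log2 scale (adjusted p = 0.274, edgeR). With the inhibitors CAPNS1, the small calpain subunit, had the smallest p of the list, at -0.44 ± 0.08 (adjusted p = 0.0803, edgeR). For the difference between the effects it was CAPN1, at -0.31 ± 0.09 (adjusted p = 0.0721, edgeR).

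Copines and extended synaptotagmins also bind membranes with calcium. Of 7 tested, CPNE2 rose with shNBD1 by 0.38 ± 0.10 (adjusted p = 0.0284, edgeR) and CPNE8 fell by 0.59 ± 0.12 (adjusted p = 0.00674, edgeR). With the inhibitors ESYT3 had the smallest p, at 0.30 ± 0.21 (adjusted p = 0.488, edgeR), and for the difference CPNE8, at -0.52 ± 0.16 (adjusted p = 0.0801, edgeR). PLA2G4A, the cytosolic phospholipase A2 that releases arachidonic acid, fell from 13.3 and 13.1 CPM to 9.88 and 9.25 CPM, a log2 change of -0.47 ± 0.13 (adjusted p = 0.0271, edgeR), 1 of 3 tested in its list. For the difference PLA2G4A was at -0.44 ± 0.18 (adjusted p = 0.162, edgeR), and with the inhibitors PLA2G4C had the smallest p, at -0.34 ± 0.34 (adjusted p = 0.647, edgeR). The formyl peptide receptors FPR1, FPR2 and FPR3, through which ANXA1 acts, had 3, 3 and 9 reads in all 8 libraries and were not tested. ANXA1 is a known glucocorticoid-induced gene, and of 8 other such genes DUSP1, a phosphatase of MAP kinases, rose with shNBD1. DUSP1 went from 30.6 and 30.2 CPM to 88.8 and 95.3 CPM, a log2 change of 1.60 ± 0.27 (adjusted p = 0.00352, edgeR), and the other 7 did not pass, among them TSC22D3 at -0.23 ± 0.11 and FKBP5 at 0.10 ± 0.08. With the inhibitors TSC22D3 had the smallest p, at -0.39 ± 0.10 (adjusted p = 0.136, edgeR), and for the difference DUSP1, at 0.70 ± 0.38 (adjusted p = 0.291, edgeR).

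The other annexins were scarce. ANXA9 had 20 to 62 reads per library and stood at 2.72 and 3.03 CPM in the shRNA control, against 2.99 and 2.99 CPM with shNBD1. With the inhibitors ANXA9 was at 2.44 and 1.89 CPM, against 2.96 and 3.16 CPM in their control, a log2 difference of -0.47 ± 0.22 (adjusted p = 0.308, edgeR), and its effects differed by 0.53 ± 0.31 (adjusted p = 0.323, edgeR). ANXA8 had 8 to 28 reads, at 0.863 and 0.737 CPM in the shRNA control, against 1.99 and 1.50 CPM with shNBD1, a log2 difference of 1.10 ± 0.51 (adjusted p = 0.159, edgeR). ANXA8L1 is a near-identical copy of ANXA8 and had 29 reads in all, so counts of these 2 genes cannot be told apart with certainty. ANXA10 had 2 reads, and ANXA13 was not listed in any library.

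**Figure D5:**
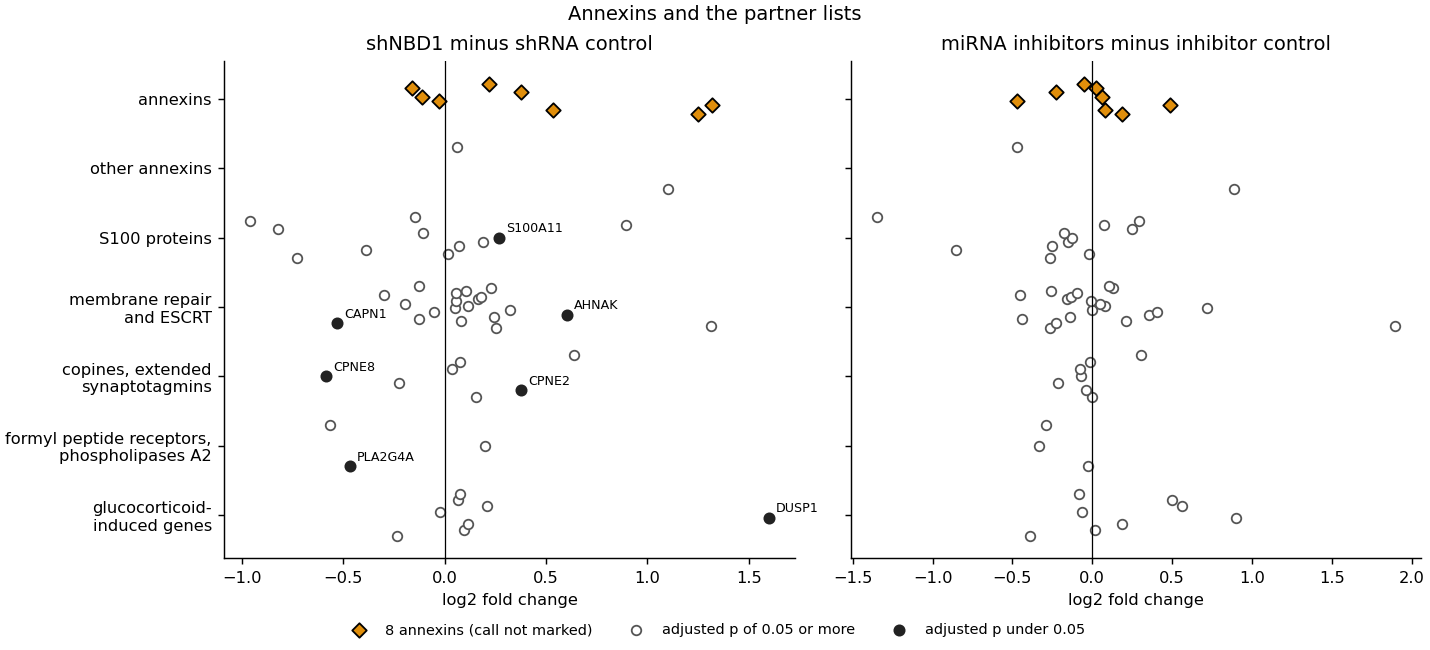
Log2 fold change of the 8 annexins (diamonds) and of the 51 tested genes of 6 partner lists (circles, filled where the edgeR adjusted p is under 0.05) in shNBD1 minus shRNA control (left) and miRNA inhibitors minus inhibitor control (right). In the left panel 7 partners are filled, 4 higher and 3 lower, and in the right panel 0.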

How the data were processed

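Ribosome footprints of 293T cells were counted in 8 libraries, 2 in each of 4 groups. Cells were lysed with cycloheximide and the Illumina TruSeq kit for mammalian ribosome profiling was adapted, per the labels' protocols. Cutadapt and Bowtie were used with GRCh38, per the submitters' processing notes. The sources used here do not give tool versions, the counting tool, its use of strand or the placing of multi-matching reads. The deposited values are raw counts of mapped reads per feature, with no header. Features were summed by symbol, and an unlisted feature was taken as 0.

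Counts were fitted in edgeR 4.0.16 (R 4.3.3) over all 8 libraries: filterByExpr (minimum count 10, minimum total 15), TMM, quasi-likelihood test, Benjamini-Hochberg over 13306 genes, 4 residual degrees of freedom, biological coefficient of variation 0.0753. SE is that implied by the test. DESeq2 1.42.0 was an alternative. Intervals and tests cover the spread between these libraries, estimated over both arms together.

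The members and the lists were chosen with earlier results of these data known. All members are named. Of each partner list and comparison, up to 3 called genes of smallest p in each direction are named, or the 1 of smallest p where none was called. S100A10, S100A6, PDCD6, SRI, the formyl peptide receptors and FKBP5 are named outside this rule, for known roles. Promoters came from the RefSeq table for GRCh38.p14, where 8 of 8 members matched. Effects of the alternatives are given at the end.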

Additional observations from a re-analysis of the deposited data

Results flagged for a closer look

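The libraries of ANXA6 lay on opposite sides of their controls in the arms. Both shNBD1 libraries lay above both shRNA controls, as in 34.7% of all genes tested. Both inhibitor libraries lay below both inhibitor controls, as in 20.3% of all genes tested. The log2 effect of shNBD1 minus that of the inhibitors was 0.60. This difference was not tested, because the family was chosen from the shNBD1 comparison. ANXA6 without inhibitors replicate 2 was at -0.10 in the inhibitor arm.

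S100A11 was singled out by the test of the difference between the effects, at 0.40 ± 0.10 on the log2 scale (adjusted p = 0.0338, edgeR). It was 1 of 51 partners, where 7.44% of all genes tested were called. The call was lost with no TMM factors. Both shNBD1 libraries were higher than both of their controls (34.7% of all genes tested). Both inhibitor libraries were lower than both of theirs (20.3% of all genes tested).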

How the results depend on the processing

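With shNBD1, ANXA1 ran from 1.21 to 1.29, ANXA2 from 0.50 to 0.56, ANXA3 from 1.29 to 1.36, ANXA6 from 0.35 to 0.40, ANXA11 from 0.19 to 0.24, ANXA7 from -0.20 to -0.12, ANXA5 from -0.16 (without shNBD1 replicate 1) to -0.06 (without shNBD1 replicate 2) and ANXA4 from -0.07 to 0.02 (without the same libraries) on the log2 scale over 12 alternatives each. That comparison chose the family, so no count of annexins past the threshold is given for it. With the inhibitors no annexin passed in fits that kept both libraries of each group, except ANXA4 with the replicate block (-0.47, adjusted p = 0.0213, edgeR). The block called 675 of 13306 genes, against 16 in the fit of all libraries. For the annexins, fits that left 1 library in a group are given by effect size alone, whether or not they passed. With 1 library left out, ANXA4 ran from -0.76 to -0.27, ANXA6 from -0.39 to -0.10 and ANXA3 from 0.16 to 0.82. Partners called with shNBD1 numbered 2 to 3 with a library left out and 20 on the 4 libraries of the arm. With the inhibitors they numbered 0 to 10 with a library left out, 1 with DESeq2, 3 with no filter, 6 with the replicate block and 4 without both inhibitor control replicate 1 and inhibitors replicate 2. Partners whose effects differed numbered 0 to 5 with a library left out, 0 with no TMM factors, 5 with the replicate block and 10 without those 2 libraries, an alternative chosen after seeing the data. Values near 0 in the inhibitor arm changed sign. ANXA7 was at -0.0087 with no TMM factors and ran from -0.0212 to 0.0646 with a library left out, ANXA5 ran from -0.0161 to 0.132 and ANXA2 from -0.0465 to 0.180. Without both libraries ANXA7 was at -0.0138, ANXA2 at -0.0698, ANXA1 at -0.0558 and ANXA3 at -0.104. The cause was not tested.

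Replicate numbers are shared between groups, but no label says that a number marks a shared culture or day. Differences between replicates 2 and 1 over 10909 genes correlated at 0.61 between the inhibitor control and the inhibitors and at 0.04 in the shRNA arm. The genes called with shNBD1 among all genes tested were 2440, 3408 with the block, 5314 on the 4 libraries of the arm, and 532, 716, 1022 and 619 without shRNA control replicate 1, shRNA control replicate 2, shNBD1 replicate 1 and shNBD1 replicate 2. With the inhibitors 16 of all genes were called, 110 with DESeq2, 179 with no filter, 675 with the block, 6 with no TMM factors and 0 on 4 libraries, and 4, 639, 930 and 6 without inhibitor control replicate 1, inhibitor control replicate 2, inhibitors replicate 1 and inhibitors replicate 2. The order of levels with and without coding length, and ANXA2 summed with its copies, were not run, since no coding length was used and no copy has a row. Low reads limit ANXA8, ANXA8L1, ANXA9 and the formyl peptide receptors.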

Other observations

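Some partners differed more between the controls than with either treatment. These genes were chosen after their values were seen. S100A16 was at 0.797 and 0.409 CPM in the shRNA control and at 10.4 and 8.32 CPM in the inhibitor control, and it stayed low with shNBD1 (0.569 and 0.136 CPM) and high with the inhibitors (11.4 and 10.8 CPM). DYSF (dysferlin), a ferlin of muscle membrane repair, was at 1.86 and 1.80 CPM in the shRNA control and at 6.59 and 6.48 CPM in the inhibitor control.

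MYOF (myoferlin), a relative of DYSF, had the largest log2 difference of the partners with the inhibitors, 1.90 ± 0.43 (adjusted p = 0.114, edgeR). Its libraries spread widely, at 4.55 and 12.7 CPM in the inhibitor control and at 18.9 and 47.1 CPM with the inhibitors. With shNBD1 it was at 20.8 and 18.7 CPM against 7.64 and 8.27 CPM in the control (1.32 ± 0.47, adjusted p = 0.0776, edgeR). VIM, the intermediate filament protein that led the HEK293 markers, rose with shNBD1 by 0.76 ± 0.08 (adjusted p = 0.000248, edgeR) and stood at -0.06 ± 0.08 with the inhibitors.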
